A study of Mus musculus with 18 samples.

Results

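The genes of fatty acid uptake and oxidation were followed while mouse embryonic stem cells formed heart cells. The set held 10 genes, picked by name from the pathway with earlier results of these data known and with no value in the rule, on an array with 18193 genes that had a probe set of their own. In the order of their roles they were Lpl, Cd36 and Fabp3 (uptake), Cpt1b and Cpt2 (the carnitine shuttle into the mitochondrion), Acadvl, Acadm and Hadha (beta-oxidation), and Ppara and Ppargc1a (transcriptional control). Of the 10, 9 had at least 1 probe set that names only that gene, and together they had 20 such probe sets. The only probe set for Cpt1b, the muscle form of carnitine palmitoyltransferase 1, is shared with Chkb and Gm44502, so no value is given for Cpt1b.

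The cells came from clones of the D3 line of mouse embryonic stem cells, grown as embryoid bodies, the floating aggregates in which such cells differentiate. Selected cardiomyocytes carried a neomycin resistance gene behind the Myh6 promoter, that of alpha myosin heavy chain, and were purified with the antibiotic G418; the labels give them neither a day nor a batch. GFP-positive cells were sorted by flow cytometry on days 5, 6, 7 and 8 from another clone, in which an enhancer of the heart transcription factor Nkx2-5 and a minimal hsp68 promoter drove green fluorescent protein (GFP), and GFP-negative cells were the other fraction of the same sorts. RNA was measured on 18 arrays in 9 groups of 2, and every sorted group was measured once in batch 1 and once in batch 2. The selected cells and the sorted cells thus differ in clone, transgene and way of purification as well as in stage. Whether the 2 arrays of a group stem from separate cultures is not stated, and p-values therefore cover only the spread between samples, which may be technical.

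Long-chain fatty acids are the main fuel of the adult heart, whereas embryonic heart cells rely more on glucose and lactate. Lipoprotein lipase frees fatty acids from circulating triglyceride, the membrane protein CD36 helps them into the cell, and fatty acid binding protein 3 carries them through the cytoplasm. Activated fatty acids cross the mitochondrial membranes as carnitine esters and are then shortened step by step by chain-length-specific dehydrogenases and the trifunctional protein. The nuclear receptor PPAR alpha and the coactivator PGC-1 alpha, the product of Ppargc1a, switch on many of these genes in adult heart.

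PPAR alpha binds DNA together with a retinoid X receptor at repeats of the hexamer AGGTCA, and estrogen-related receptors bind an extended form of the same hexamer. The 250 bases before the RefSeq start (GRCm38.p6) were available for 8 of the 10 genes and were searched on both strands. The full direct repeat, AGGTCANAGGTCA, was in 0 of these 8 windows, against 0.0335% of 32851 windows of the same length. The extended form, TNAAGGTCA, was also in 0 of 8, against 1.14% of all windows. The hexamer AGGTCA, which both longer motifs contain, was in 3 of 8, against 14.0% of all windows, in Cd36, Acadm and Acadvl. The windows of the 2 acyl-CoA dehydrogenases are shown because Acadvl and Acadm, neighbours in the pathway, differed in their course over the days of sorting. Each is written 5′ to 3′ on the strand of its gene, and the capitals mark AGGTCA or, in Acadm, its reverse complement TGACCT. The Acadm window lies at chr3:153944644-153944893 on the minus strand, and the Acadvl window at chr11:70015429-70015678 on the minus strand.
Acadm: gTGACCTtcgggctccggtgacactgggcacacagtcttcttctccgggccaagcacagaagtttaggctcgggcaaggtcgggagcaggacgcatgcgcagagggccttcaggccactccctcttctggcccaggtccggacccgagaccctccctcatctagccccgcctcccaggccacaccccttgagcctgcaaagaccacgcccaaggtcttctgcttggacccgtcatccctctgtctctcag
Acadvl: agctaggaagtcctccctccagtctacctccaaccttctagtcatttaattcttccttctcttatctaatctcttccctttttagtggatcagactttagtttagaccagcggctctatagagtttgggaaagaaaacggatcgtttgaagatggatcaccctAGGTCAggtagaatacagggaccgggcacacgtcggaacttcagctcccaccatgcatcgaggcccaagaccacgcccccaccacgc
The match starts 249 bases before the start of Acadm and 87 bases before that of Acadvl; it is a match of letters, and no binding was measured.

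Values are MAS5 signals in arbitrary units, scaled by the authors to a common trimmed mean, and their precision is limited by the number of arrays. Levels were compared only within a probe set. Fold changes are differences of log2(signal + 6.8) with standard errors (SE), fitted with limma over all 18 arrays, and the offset understates changes of dim genes. A gene entered the fit where its signal was at or above the median of all values, 22.5 units, on 2 or more arrays. This left 13379 genes, 8 of the 10 among them. The threshold was a Benjamini-Hochberg adjusted p of 0.05 over all 13379 genes in a comparison, and every adjusted p below is of that kind.

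The gene of the enhancer that drove GFP followed the labels: Nkx2-5 had 474 and 500.0 units in selected cardiomyocytes, 249 and 323 units in day 8 GFP-positive cells and 76.3 and 79.4 units in day 8 GFP-negative cells. The summed signal of 10 cardiomyocyte markers was 47943 to 48733 units in selected cardiomyocytes, 17487 to 18084 in day 8 GFP-positive cells and 2623 to 5259 in day 8 GFP-negative cells. These markers include Myh6 and Nkx2-5, the genes of the 2 transgenes, so part of the sum follows the purification by design. The groups also differed in other cell types. The sum of 10 endothelial markers was 302 to 337 units in selected cardiomyocytes, with Pecam1, Tie1, Plvap and Cldn5 below the median of all values on both arrays, and 6463 to 7461 units in day 8 GFP-positive cells. The sum of 9 endoderm markers was 303 to 389 units in selected cardiomyocytes, with Ttr, Apoa1, Apob, Hnf4a, Amn and Rbp4 below that median, and 17971 to 20106 units in day 8 GFP-positive cells. Of an adipocyte list, 5 of 7 genes had a probe set of their own, and their sum did not exceed 47.9 units on any array. The day 5 arrays of batch 2 stood apart from those of batch 1. The sum of 7 pluripotency markers was 4066 units in GFP-positive cells and 9702 in GFP-negative cells of day 5 in batch 2, and 466 and 1766 units in batch 1, while the sum of the globins Hbb-bh1 and Hba-x was 81.4 and 42.8 units in batch 2, and 9896 and 11025 in batch 1. In RNA of mixed cells, fewer cells of a type and less RNA per cell cannot be told apart.

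**Figure D1:**
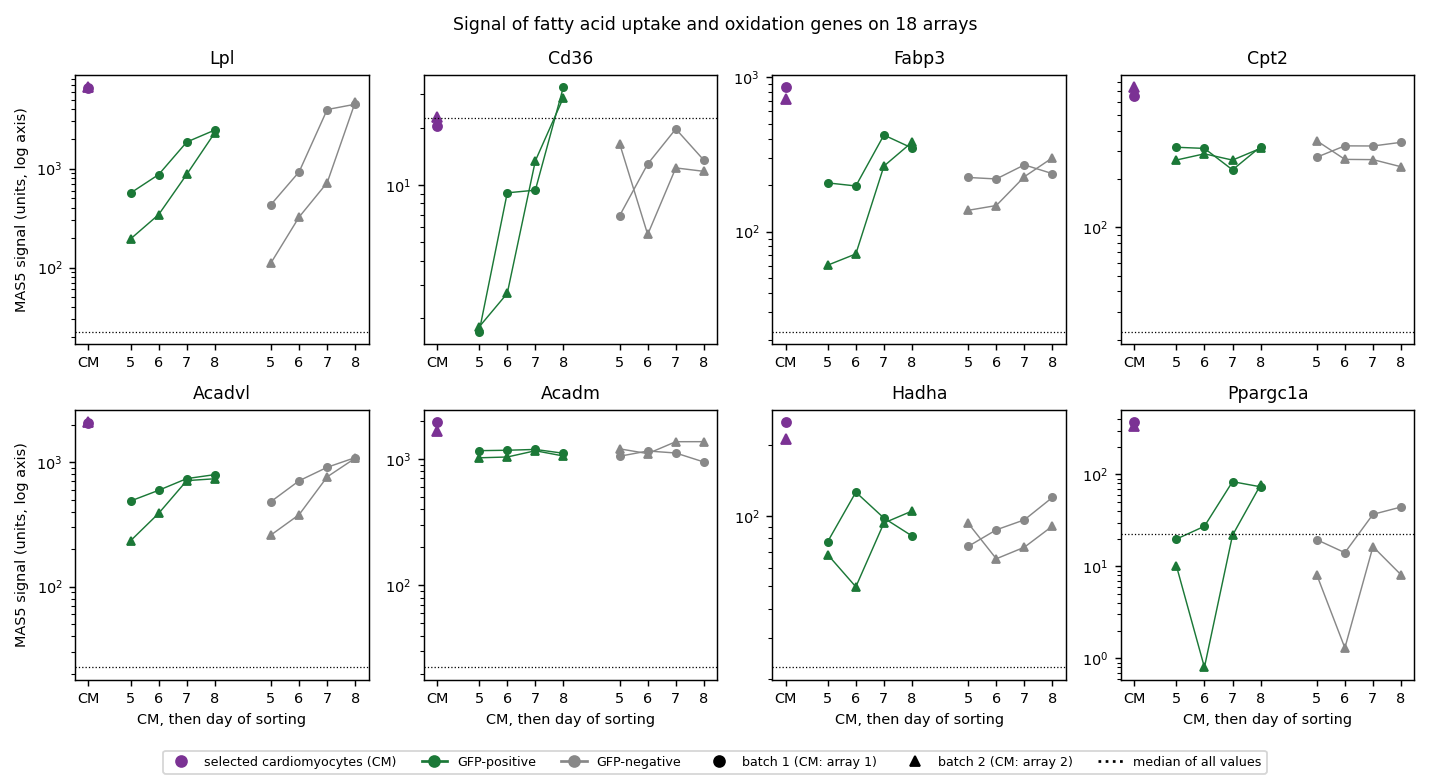
MAS5 signal (units, log axis) of the 8 tested genes on 18 arrays, in selected cardiomyocytes (CM, purple), GFP-positive cells (green) and GFP-negative cells (grey) by day of sorting, with circles for batch 1 or cardiomyocyte array 1, triangles for batch 2 or cardiomyocyte array 2, and a dotted line at the median of all values, 22.5. Both cardiomyocyte points lie above all sorted points in 7 of 8 panels, Cd36 being the exception, and only Lpl and Acadvl climb at every step of all 4 sorted series.

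Lpl encodes lipoprotein lipase, the enzyme that frees fatty acids from triglyceride-rich lipoproteins. Its signal was 6558 and 6733 units on the 2 arrays of selected cardiomyocytes. In GFP-positive cells of days 5, 6, 7 and 8 it was 567, 872, 1860.1 and 2459 units in batch 1 and 195, 343, 876 and 2313 units in batch 2. In GFP-negative cells of the same days it was 434, 928, 3963 and 4486 units in batch 1 and 112, 324, 723 and 4731 units in batch 2. Lpl thus climbed at each of 12 steps between days, in both fractions and both batches, and the cardiomyocytes lay above all sorted arrays. Ordered by mean signal, selected cardiomyocytes, day 8 GFP-negative cells and day 8 GFP-positive cells came highest and did not overlap each other, whereas from day 8 GFP-positive cells downwards each group overlapped the next.

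Day 8 against day 5, Lpl was higher by 2.81 ± 0.82 in GFP-positive cells (log2, SE; adjusted p = 0.0309) and by 4.34 ± 0.82 in GFP-negative cells (adjusted p = 0.00819). By batch these differences were 2.10 and 3.52 in GFP-positive cells and 3.35 and 5.32 in GFP-negative cells. The change did not differ between the fractions beyond the error (-1.52 ± 1.15, GFP-positive minus GFP-negative; adjusted p = 0.621, 95% interval -4.01 to 0.97). Selected cardiomyocytes were 1.48 ± 0.82 above day 8 GFP-positive cells, short of the threshold (adjusted p = 0.180; with batch in the fit, 0.0228), and 0.53 ± 0.82 above day 8 GFP-negative cells (adjusted p = 0.646). A second probe set, 1431056_a_at, gave 2.30 in GFP-positive cells and 3.84 in GFP-negative cells between the same days, both past the threshold (adjusted p = 0.0314 and 0.00684).

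Lpl is also made by macrophages and by cells of mesenchymal origin. The sum of 8 fibroblast markers was 8655 to 20710 units in day 8 GFP-negative cells and 539 to 1258 in day 5 GFP-negative cells. Between these days 6 of 8 passed the threshold as higher, against 7.40% of all genes. The same sum was 22618 to 22678 units in selected cardiomyocytes against 2998 to 3018 in day 8 GFP-positive cells. There 5 of 8 passed the threshold as higher, against 13.7% of all genes. The sum of 7 macrophage and leukocyte markers was 1656 and 1834 units in day 8 GFP-positive cells, against 180 and 144 in day 5 GFP-positive cells, and 4043 and 3218 units in day 8 GFP-negative cells, against 199 and 186 in day 5 GFP-negative cells. In selected cardiomyocytes that sum was 622 and 657 units. Their part in the Lpl result was not tested.

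Cd36 encodes the membrane protein that binds and takes up long-chain fatty acids. It was dim on all arrays: 20.3 and 22.8 units in selected cardiomyocytes. In GFP-positive cells of days 5 to 8 it had 1.7, 9.1, 9.4 and 32.8 units in batch 1 and 1.8, 2.7, 13.4 and 28.8 units in batch 2. The GFP-negative arrays had 6.9, 12.9, 19.7 and 13.5 units in batch 1 and 16.5, 5.5, 12.3 and 11.8 units in batch 2. Day 8 GFP-positive cells were highest, and did not overlap any other group. On 6 of the 8 GFP-positive arrays Cd36 lay below 22.5 units, where the signal has no reliable order, so no course over days is read from it.

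Because only the day 8 GFP-positive arrays and 1 cardiomyocyte array reached 22.5 units, Cd36 entered the fit through the group where it was high. Its fitted difference between days 8 and 5 in GFP-positive cells, 2.13 ± 0.38 (2.22 and 2.05 in batches 1 and 2), is thus a description and no test, and its size depends on the offset, since the day 5 values lie below the median of all values. In GFP-negative cells the difference was 0.12 ± 0.38. That between the changes was 2.01 ± 0.53 (adjusted p = 0.131, and 0.0993 with batch in the fit). It rests on the same day 8 GFP-positive arrays and is likewise a description and no test. The other 2 probe sets of Cd36 stayed below 22.5 units on all arrays. Selected cardiomyocytes stood at -0.41 ± 0.38 against day 8 GFP-positive cells (adjusted p = 0.434, 95% interval -1.22 to 0.41). That difference was 0.01 both after quantile normalization and after setting the array medians equal. It too is a description and no test, since Cd36 entered the fit through the day 8 GFP-positive arrays. CD36 is also known from capillary endothelium. Day 8 against day 5 in GFP-positive cells, 8 of 10 endothelial markers passed the threshold as higher, against 11.2% of all genes. Their part in the Cd36 signal was not tested.

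Fabp3 encodes the fatty acid binding protein of heart and skeletal muscle. Its signal was 865 and 718 units in selected cardiomyocytes. The GFP-positive arrays of days 5 to 8 read 206, 197, 421 and 347 units in batch 1 and 60.6, 71.6, 265 and 379 units in batch 2. The GFP-negative arrays of the same days read 224, 219, 270.0 and 237 units in batch 1 and 137, 147, 226 and 300.1 units in batch 2. Cardiomyocytes were highest, and batch 2 was the lower batch on days 5 and 6 in both fractions.

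Day 8 against day 5, Fabp3 was higher in GFP-positive cells by 1.62 ± 0.50 (adjusted p = 0.0402), by 0.73 in batch 1 and 2.52 in batch 2. In GFP-negative cells the difference was 0.59 ± 0.50 (adjusted p = 0.476), and the changes did not differ past the threshold (1.04 ± 0.71; adjusted p = 0.585). Selected cardiomyocytes were 1.11 ± 0.50 above day 8 GFP-positive cells (adjusted p = 0.105), 1.63 with equal array medians (adjusted p = 0.0294) and past the threshold with batch in the fit (adjusted p = 0.0389). A dimmer probe set of Fabp3, 1444844_at, had 75 and 35.2 units in selected cardiomyocytes and 47.3 and 63.8 units in day 8 GFP-positive cells. Its differences passed the threshold in none of these comparisons, with -0.08 ± 0.68 in the cardiomyocytes, so the probe sets disagreed.

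Cpt2 encodes the carnitine palmitoyltransferase of the inner mitochondrial membrane, which hands the fatty acid back to coenzyme A inside the mitochondrion. It was 658 and 749 units in selected cardiomyocytes. Over days 5 to 8, GFP-positive cells had 315, 309.9, 228 and 317 units in batch 1 and 262, 287, 262 and 310.3 units in batch 2. Over the same days, GFP-negative cells had 273, 321, 321 and 338 units in batch 1 and 345.5, 265, 264 and 238 units in batch 2. The 16 sorted arrays showed no common course over days, all neighbouring sorted groups overlapped in the order of means, and the cardiomyocytes stood above them all.

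Cpt2 was higher in selected cardiomyocytes than in day 8 GFP-positive cells by 1.14 ± 0.20 (adjusted p = 0.000972) and stayed past the threshold in each of 18 fits that left out 1 array. Between days 8 and 5 it differed by 0.12 ± 0.20 in GFP-positive cells and -0.11 ± 0.20 in GFP-negative cells (adjusted p = 0.700 and 0.758). The other probe set of Cpt2, 1447820_x_at, did not exceed 39.0 units on any array and gave -0.19 ± 0.53 in the cardiomyocytes (adjusted p = 0.811).

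Acadvl encodes the very long-chain acyl-CoA dehydrogenase of the inner mitochondrial membrane, which starts the oxidation of the longest common fatty acids. Its signal was 2083 and 2086 units in selected cardiomyocytes. In GFP-positive cells of days 5 to 8 it was 488, 595, 738 and 795 units in batch 1 and 234, 388, 711 and 736 units in batch 2. In GFP-negative cells it was 483, 709.5, 911 and 1089.7 units in batch 1 and 260.4, 379, 763 and 1079 units in batch 2. Like Lpl, Acadvl climbed at all 12 of 12 steps. That was true of 0.957% of all genes tested, and of 2 of the 8 genes here. Batch 1 was above batch 2 in each of the 8 sorted groups.

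Day 8 against day 5, Acadvl was higher by 1.16 ± 0.36 in GFP-positive cells (adjusted p = 0.0410), with 0.70 and 1.63 in batches 1 and 2, and by 1.59 ± 0.36 in GFP-negative cells (adjusted p = 0.0172), with 1.16 and 2.02. The changes did not differ between the fractions past the threshold (-0.43 ± 0.51; adjusted p = 0.777). Selected cardiomyocytes were higher than day 8 GFP-positive cells by 1.44 ± 0.36 (adjusted p = 0.00804), and 0.94 ± 0.36 above day 8 GFP-negative cells (adjusted p = 0.0578).

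Acadm encodes the medium-chain acyl-CoA dehydrogenase of the mitochondrial matrix. It was 1941 and 1659 units in selected cardiomyocytes. From day 5 to day 8 the GFP-positive series read 1161.5, 1170.3, 1188 and 1107.5 units in batch 1 and 1019.9, 1035, 1160.0 and 1054 units in batch 2. The GFP-negative series read 1049, 1155, 1113 and 945 units in batch 1 and 1201, 1101, 1367 and 1368 units in batch 2. The sorted arrays stayed between 945 and 1368 units with no common course, and all neighbouring sorted groups overlapped.

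Acadm was higher in selected cardiomyocytes than in day 8 GFP-positive cells by 0.73 ± 0.18 (adjusted p = 0.00651), the smallest of the differences past the threshold among these genes. Between days 8 and 5 it differed by -0.01 ± 0.18 in GFP-positive cells (adjusted p = 0.972, 95% interval -0.39 to 0.37) and by 0.02 ± 0.18 in GFP-negative cells (adjusted p = 0.955, interval -0.36 to 0.40). With equal array medians the difference in GFP-positive cells was -0.57 (adjusted p = 0.0672).

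Hadha encodes the alpha subunit of the trifunctional protein, which carries out the later steps of each round of long-chain oxidation. Its signal was 251 and 214 units in selected cardiomyocytes. In GFP-positive cells of days 5 to 8 it was 77.6, 126, 97.8 and 82.0 units in batch 1 and 68.2, 49.7, 93.2 and 105 units in batch 2. In GFP-negative cells it was 74.0, 87.1, 96.1 and 119.9 units in batch 1 and 92.9, 65.5, 73.4 and 90.4 units in batch 2. The sorted groups overlapped along the whole order of means, and the cardiomyocytes were the only group apart.

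Hadha was higher in selected cardiomyocytes than in day 8 GFP-positive cells by 1.26 ± 0.34 (adjusted p = 0.0112). Between days 8 and 5 it differed by 0.32 ± 0.34 in GFP-positive cells (adjusted p = 0.530) and 0.31 ± 0.34 in GFP-negative cells (adjusted p = 0.591).

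Ppara had 3 probe sets, and none reached 22.5 units on any array. The highest value was 15.4 units, in day 8 GFP-positive cells of batch 2, on probe set 1439675_at, which had 0.7 and 11.6 units in selected cardiomyocytes. Probe set 1449051_at had 4.5 and 2.2 units in selected cardiomyocytes and 1.5 to 5.1 units on the sorted arrays, and 1457721_at had 12.3 and 8.7 units in selected cardiomyocytes and 0.9 to 11.4 units on the sorted arrays. All of these lay below the median of all values, where the signal has no reliable order, so Ppara was not tested.

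Ppargc1a encodes PGC-1 alpha, the coactivator of mitochondrial biogenesis and fatty acid oxidation. On its brightest probe set, 1460336_at, it was 367 and 334 units in selected cardiomyocytes. In GFP-positive cells of days 5 to 8 it was 19.8, 27.3, 83.4 and 73.3 units in batch 1 and 10.2, 0.8, 21.8 and 77.0 units in batch 2. In GFP-negative cells it was 19.5, 14.1, 36.8 and 44.2 units in batch 1 and 8.1, 1.3, 16.4 and 8.1 units in batch 2. The cardiomyocytes stood far above every sorted array, day 8 GFP-positive cells came next, and the sorted groups overlapped their neighbours in the order of means. Most values of days 5 and 6 were below the median of all values.

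Selected cardiomyocytes were higher than day 8 GFP-positive cells by 2.12 ± 0.77 (adjusted p = 0.0481; with batch in the fit, 0.00246) and higher than day 8 GFP-negative cells by 3.69 ± 0.77 (adjusted p = 0.00258). Of the 5 probe sets of Ppargc1a, 4 passed the threshold in the first of these comparisons over all probe sets tested (1460336_at, 1456395_at, 1434100_x_at and 1434099_at, with 1.62 to 2.12), and 1437751_at did not (0.96 ± 0.41; adjusted p = 0.0885). Of these, 1456395_at reached 22.5 units on 2 arrays only, both of cardiomyocytes, and 1434099_at on 3, so they were tested because the cardiomyocytes were high and add no support to the call. Day 8 against day 5 in GFP-positive cells, 1460336_at differed by 1.95 ± 0.77 (adjusted p = 0.0931 over genes; with batch in the fit, 0.00773), 1434099_at was higher by 2.15 ± 0.59 (adjusted p = 0.0267) and 1434100_x_at by 1.92 ± 0.51 (adjusted p = 0.0223), while 1456395_at and 1437751_at did not pass (1.27 and 0.82; adjusted p = 0.0920 and 0.183). Of these, 1434099_at and 1434100_x_at reached 22.5 units only on arrays of cardiomyocytes and of late GFP-positive cells. Their day 5 GFP-positive values were 1.7 and 0.1 units, and 4.9 and 0.8 units, below the median of all values. Their differences between days are thus descriptions and add no support for a rise of Ppargc1a. In GFP-negative cells none of the 5 probe sets passed (0.11 to 0.97), and no test of the difference between the fractions passed either (adjusted p = 0.348 to 0.944).

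**Figure D2:**
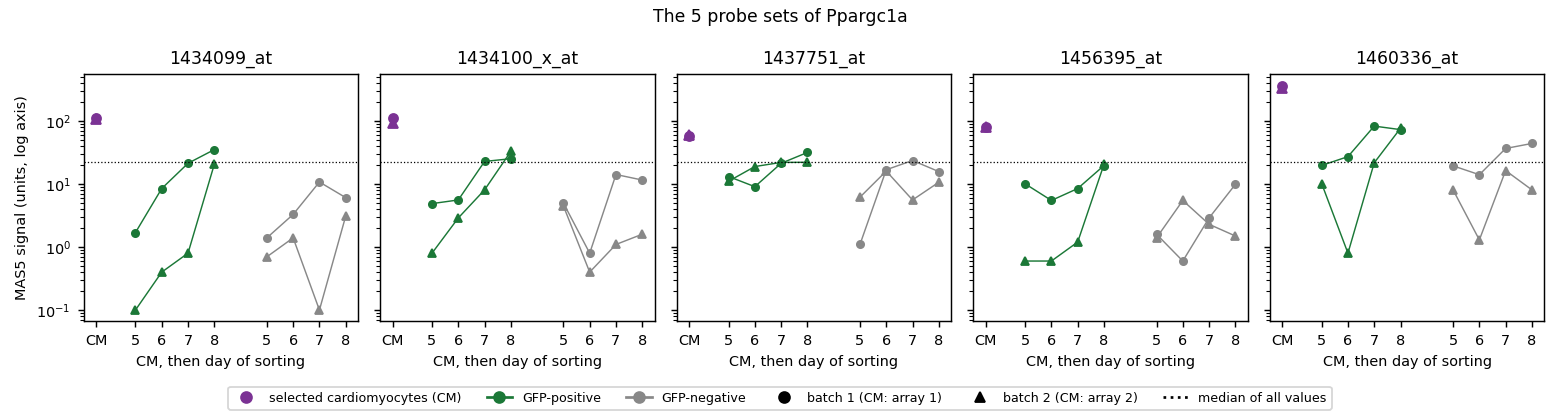
MAS5 signal (units, log axis) of the 5 probe sets of Ppargc1a on 18 arrays, in selected cardiomyocytes (CM, purple), GFP-positive cells (green) and GFP-negative cells (grey) by day, with circles for batch 1 or cardiomyocyte array 1, triangles for batch 2 or cardiomyocyte array 2, and a dotted line at the median of all values, 22.5. On every probe set both cardiomyocyte arrays lie above all 16 sorted arrays, and few sorted values reach the line except on 1460336_at.

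The comparison of selected cardiomyocytes with day 8 GFP-positive cells asked how cells purified by the Myh6 promoter differ from cells purified by the Nkx2-5 enhancer on the last day of sorting. The mitochondrial enzymes of the set were higher in selected cardiomyocytes: Acadvl, Acadm, Cpt2 and Hadha all passed the threshold, as did Ppargc1a. The uptake genes Lpl and Fabp3 did not pass, and were above by 1.48 and 1.11. Cd36 stood at -0.41, a description and no test, since it entered the fit through its day 8 GFP-positive arrays. It was left out of the count, and of the other 7 genes 5 were higher and none was lower (5 of 8 with it). Of all 13379 genes 35.6% passed, 13.7% higher and 21.8% lower. The median difference of the 7 was 1.26 (1.20 with Cd36), against -0.16 for all genes tested. Both cardiomyocyte arrays lay above all 16 sorted arrays in 7 of the 8 genes, and in 19.3% of all genes. The marker sums of other cell types given above differed between the same groups, and their part in these counts was not tested.

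With batch as a covariate 7 of the 8 genes passed, Lpl and Fabp3 being added, and 39.5% of all genes. Without a single array some of these calls were lost, and the count of all genes called varied over these fits too. The call of Acadm was lost without cardiomyocyte array 1, and that of Acadvl without day 8 GFP-positive array 2. That of Hadha was lost without cardiomyocyte array 1 or day 8 GFP-positive array 1. The call of Ppargc1a was lost in 10 of 18 fits, among them those without an array of either group, and narrowly in the other 6. Ppargc1a also missed the threshold with an offset of 1 (adjusted p = 0.181), with no filter on dim genes (0.0604) and without the variance trend (0.0564).

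Over the days of sorting the set split. Lpl and Acadvl were higher on day 8 than on day 5 in both fractions, Fabp3 in GFP-positive cells, and Acadm, Cpt2 and Hadha in neither. In GFP-positive cells 3 of 7 genes passed, all higher, where 19.4% of all genes passed, 11.2% higher and 8.23% lower. The median difference of the 7 was 1.16, against 0.14 for all genes. Cd36, which entered the fit through its day 8 GFP-positive arrays, was left out of this count (4 of 8 with it). In GFP-negative cells 2 of 7 passed, both higher, where 13.0% of all genes passed, 7.40% higher and 5.61% lower, and the median difference of the 7 was 0.48. With batch as a covariate Ppargc1a was added in GFP-positive cells (background 25.5%).

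These counts rest on groups of 2 arrays. Batch 1 was above batch 2 in all 4 groups of days 5 and 6 for Lpl, Acadvl, Fabp3 and Ppargc1a, a pattern of 16.2% of all genes. Nkx2-5 and Myh6 followed it too, Myh6 with 729.5 units in batch 1 and 19.5 units in batch 2 of day 5 GFP-positive cells. Without day 5 GFP-positive array 2 the calls in GFP-positive cells were lost, with Fabp3 at 0.79 and Acadvl at 0.64. The lowest difference of Lpl there in any fit without 1 array was 2.06. The calls of Lpl, Fabp3 and Acadvl were also lost without either day 8 GFP-positive array. In GFP-negative cells the calls of Lpl and Acadvl were lost without day 5 GFP-negative array 2. That of Acadvl was also lost without either day 8 GFP-negative array. Each of these fits left a lone array in a group. Fewer of all genes passed in each of them, and far fewer without array 2 of day 5. Without either cardiomyocyte array, which alters only the shared estimate of the spread and the genes tested, Fabp3 and Acadvl missed narrowly in GFP-positive cells (adjusted p = 0.0554 to 0.0577), and Acadvl did so without either day 7 GFP-positive array (0.0529 and 0.0531). With the array medians set equal, none of the 7 genes passed in GFP-positive cells, Lpl missing narrowly (2.25; adjusted p = 0.0510).

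**Figure D3:**
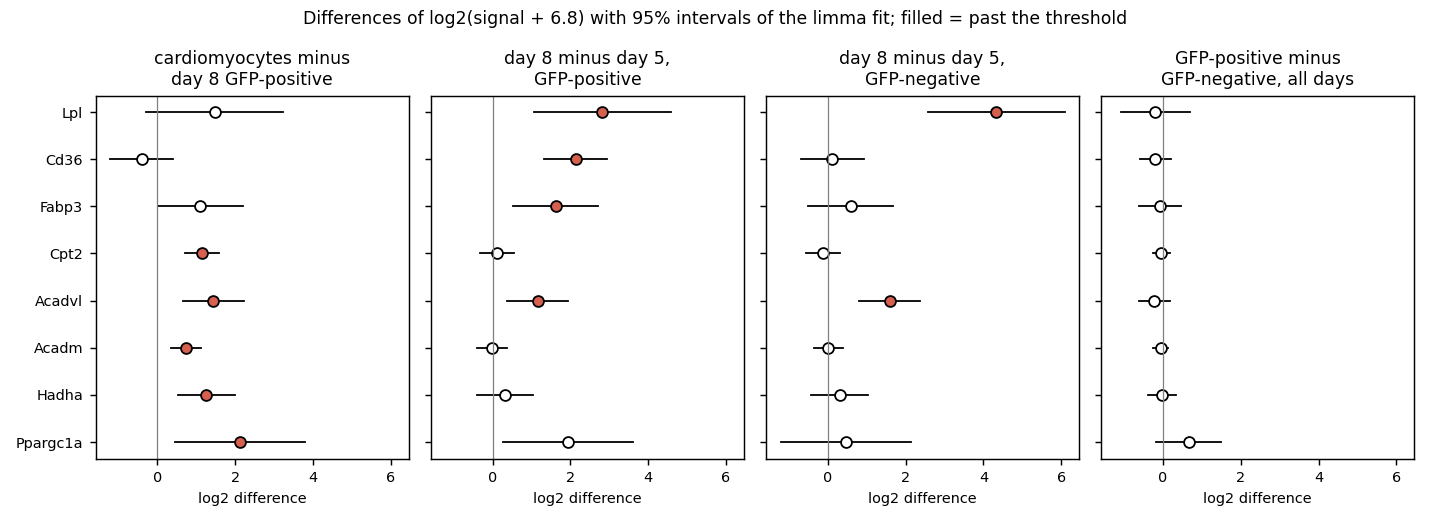
Differences of log2(signal + 6.8) of the 8 tested genes in 4 comparisons, with bars for the 95% intervals of the limma fit and filled points past the adjusted p of 0.05. In selected cardiomyocytes minus day 8 GFP-positive cells the filled points are the 4 mitochondrial enzymes and Ppargc1a, between days they are Lpl, Fabp3, Acadvl and Cd36, the last of these tested only through its day 8 GFP-positive arrays, and none is filled between the fractions.

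Setting the GFP-positive against the GFP-negative fraction asks what distinguishes cells in which the Nkx2-5 enhancer is active. None of the 8 genes differed over all days, at an adjusted p of 0.05 or at an unadjusted p of 0.05, and none passed with batch as a covariate, where 2.68% of all genes passed (5.41% with batch). The differences lay between -0.22 ± 0.18 for Acadvl and 0.66 ± 0.39 for Ppargc1a. The value of Ppargc1a did not pass (adjusted p = 0.387, 95% interval -0.17 to 1.5), and in 4 of its 8 pairs matched by day and batch both arrays were below 22.5 units. For Nkx2-5, the GFP-positive array was the higher one of all 8 such pairs (1.07 ± 0.26; adjusted p = 0.0441).

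On single days 0 of the 8 genes passed, against 0.0149% of all genes on day 5, 0 on days 6 and 7 and 2.58% on day 8. On day 8 Cd36 and Ppargc1a were above in GFP-positive cells by 0.95 ± 0.38 and 1.57 ± 0.77 (adjusted p = 0.201 and 0.300) and Lpl stood at -0.95 ± 0.82 (adjusted p = 0.571). On day 5 Cd36 stood at -1.06 ± 0.38 (adjusted p = 0.610). At an unadjusted p of 0.05, Cd36 was the 1 gene of the 8 past the threshold on day 5, where all 4 of its values were below 22.5 units, and on day 8, and none was on days 6 and 7. The tests of whether the change between days 8 and 5 differed between the fractions passed for 0 of 8 genes, against 0.00747% of all genes (1.03% with batch as a covariate), and at an unadjusted p of 0.05 Cd36 was again the 1 gene past it. Cd36 entered the fit through its day 8 GFP-positive arrays. Its day 8 difference and its difference of changes rest on those arrays and are thus descriptions and no tests.

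The wider pathway was described with 5 lists chosen with earlier results of these data known: 21 genes of uptake and activation, 23 of the carnitine shuttle and mitochondrial beta-oxidation, 14 of peroxisomal oxidation, 23 regulators and targets of the PPAR and estrogen-related receptors, and 12 of fatty acid synthesis. Those without a probe set of their own, among them Acsl1 and Slc27a6, gave no value.

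Against day 8 GFP-positive cells, the mitochondrial list had the most genes past the threshold of the 5 lists. Of 23 genes tested 14 were higher in selected cardiomyocytes and none was lower, with a median of 0.81 against -0.16 for all genes. Acadl, the long-chain acyl-CoA dehydrogenase, had 2639 and 2455 units in selected cardiomyocytes, against 354 and 397.5 units in day 8 GFP-positive cells, and was higher by 2.74 ± 0.29 (adjusted p = 2.89e-05). Cpt1a, the carnitine palmitoyltransferase 1 of liver and of many embryonic tissues, had 577 and 449.5 units in selected cardiomyocytes, against 82.4 and 65.9 units in day 8 GFP-positive cells, and was higher by 2.68 ± 0.41 (adjusted p = 3.34e-04). Hadhb, the beta subunit that pairs with Hadha, was higher by 1.69 ± 0.25 and Acat1, the thiolase of the matrix, by 1.51 ± 0.23 (adjusted p = 2.71e-04 and 3.46e-04). In each of these 4 genes both cardiomyocyte arrays were above both day 8 GFP-positive arrays, and each passed in all 18 fits without 1 array. Without day 8 GFP-positive array 2, which leaves a lone array in that group, the count of higher genes fell, as did the count of all genes called. The count of higher genes in the list was 19 with equal array medians, where 27.0% of all genes were higher. In the same comparison as reported, 5 of 8 fibroblast markers passed the threshold as higher, against 13.7% of all genes. As lower passed 10 of 10 endothelial and 8 of 9 endoderm markers, against 21.8% of all genes. Their part in the count was not tested.

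In the other lists the counts of that comparison were read against 13.7% higher and 21.8% lower of all genes. In uptake and activation 2 of 17 genes were higher and 4 lower, close to those shares. Mgll, monoacylglycerol lipase, had 741 and 858 units in selected cardiomyocytes, against 45.2 and 56.4 units in day 8 GFP-positive cells, and was higher by 3.81 ± 0.43 (adjusted p = 4.66e-05). Got2, the mitochondrial aspartate aminotransferase that has also been described as a fatty acid binding protein of the membrane, was higher by 0.73 ± 0.14. Gpihbp1, which anchors lipoprotein lipase to the capillary wall, had 18.3 and 23.0 units in selected cardiomyocytes, against 89.5 and 98.8 units in day 8 GFP-positive cells, and was lower (-1.88 ± 0.39; adjusted p = 0.00276), and Acsl3, an acyl-CoA synthetase, was lower too (-1.15 ± 0.20). Gpihbp1 is a gene of endothelium, and all 10 endothelial markers were lower in the same comparison; their part in it was not tested.

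Among regulators and targets 2 of 18 genes were higher and 5 lower, again close to the shares of all genes, with a median of -0.31. Ppargc1b, the close relative of Ppargc1a, had 151 and 127 units in selected cardiomyocytes, against 33.6 and 33.4 units in day 8 GFP-positive cells, and was higher by 1.85 ± 0.27 (adjusted p = 2.46e-04). Acot2, a mitochondrial acyl-CoA thioesterase, was higher by 1.05 ± 0.22, while Nrf1, nuclear respiratory factor 1, was lower (-2.28 ± 0.25) as was Rxrb, a partner of PPAR receptors (-1.02 ± 0.18). In fatty acid synthesis 4 of 12 were higher and 1 lower: the desaturases Scd1 (1.89 ± 0.36) and Scd2 (0.92 ± 0.15), malic enzyme Me1 (1.51 ± 0.46) and the regulator Srebf1 (0.57 ± 0.18) were higher. Of 11 peroxisomal genes none passed (1 at an unadjusted p of 0.05), with Pex5, a peroxisomal import receptor, at -0.53 and Decr2, the peroxisomal dienoyl-CoA reductase, at 0.65. With equal array medians, which moved the median of all genes to 0.32, 27.0% of all genes were higher and 8.85% lower, and the counts were 5 higher and 2 lower in uptake, 4 and 1 among regulators, 8 and 0 in synthesis and 3 and 0 in peroxisomal oxidation; with quantile normalization (16.6% of all genes higher and 18.9% lower) they were 2 and 2, 3 and 4, 5 and 0, and 1 and 0. The counts of uptake, regulators and synthesis also varied over the fits without 1 array, as did the count of all genes called.

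**Figure D4:**
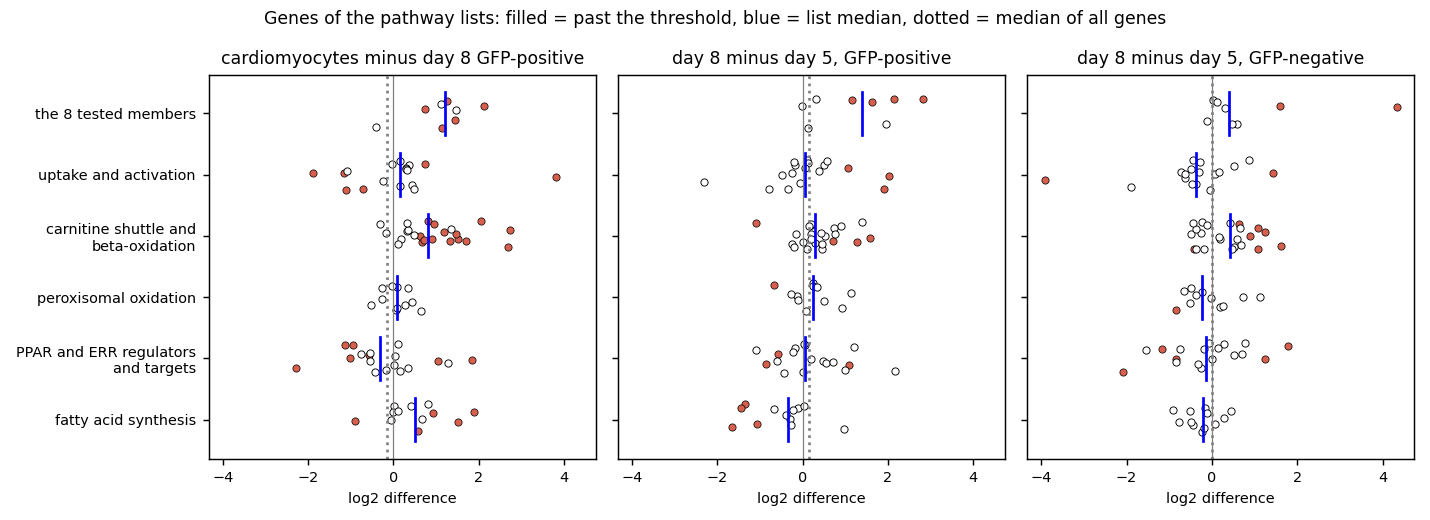
Differences of log2(signal + 6.8) of each tested gene of the set and of 5 pathway lists in 3 comparisons, with filled points past the adjusted p of 0.05, blue bars for the median of each list and a dotted line for the median of all genes tested. In selected cardiomyocytes minus day 8 GFP-positive cells the mitochondrial list has 14 filled points, all to the right of 0, and in day 8 minus day 5 of GFP-positive cells the 4 filled points of fatty acid synthesis lie to the left of 0.

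Day 8 against day 5 in GFP-positive cells, 4 of 12 genes of fatty acid synthesis were lower and none was higher, with a median of -0.34, where 8.23% of all genes were lower and 11.2% higher. Acaca, acetyl-CoA carboxylase, had 106 and 128 units on day 8, against 347 and 424 units on day 5 (-1.67 ± 0.31; adjusted p = 0.00699). Fasn, fatty acid synthase, was at -1.34 ± 0.31, the desaturase Scd1 at -1.45 ± 0.36 and the elongase Elovl6 at -1.08 ± 0.29, and all 3 were lower in both batches. These 4 also passed with quantile normalization and with equal array medians, where 10 of 12 were lower and 27.3% of all genes. In batches 1 and 2 the differences were -1.65 and -1.68 for Acaca and -0.97 and -1.72 for Fasn. They were -1.09 and -1.80 for Scd1 and -0.94 and -1.21 for Elovl6. Without day 5 GFP-positive array 2 the calls were lost, as were most calls over all genes. The day 5 arrays of batch 2 had the high sums of pluripotency markers given above. In the same comparison 6 of 9 endoderm markers passed the threshold as higher, against 11.2% of all genes. The part of these markers in the result was not tested. In GFP-negative cells none of the 12 passed (3 at an unadjusted p of 0.05), with Fasn at -0.92 ± 0.31 and Acaca at -0.78 ± 0.31 (adjusted p = 0.0669 and 0.113; with batch in the fit, 0.0108 and 0.0341). The changes of Acaca and Scd1 did not differ between the fractions past the threshold (adjusted p = 0.428 and 0.317; with batch in the fit, 0.211 and 0.0474).

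Between these days the mitochondrial list of 23 genes had 3 higher and 1 lower in the GFP-positive fraction (7 and 1 with batch as a covariate), and 6 higher and 1 lower in the GFP-negative fraction. Of all genes 19.4% were called in GFP-positive cells (25.5% with batch as a covariate) and 13.0% in GFP-negative cells. Cpt1a had 82.4 and 65.9 units on day 8, against 19.0 and 21.1 units on day 5, in GFP-positive cells and was higher by 1.59 ± 0.41 (adjusted p = 0.0194). In GFP-negative cells it had 107 and 44.0 units on day 8, against 12.4 and 25.4 units on day 5 (1.61 ± 0.41, adjusted p = 0.0249). By batch the differences of Cpt1a were 1.79 and 1.38 in GFP-positive cells and 2.57 and 0.66 in GFP-negative cells. Of its day 5 values only that of 25.4 units was above 22.5 units, so their size depends on the offset. Acat1 was higher in both fractions (0.71 ± 0.23 and 1.08 ± 0.23), but in neither with equal array medians (0.16 and 0.85; adjusted p = 0.740 and 0.0821), and in GFP-positive cells it passed in 5 of 18 fits without 1 array. In GFP-positive cells Mlycd, malonyl-CoA decarboxylase, was higher by 1.27 ± 0.27, and Acad9, a dehydrogenase relative needed to assemble respiratory complex I, was lower (-1.10 ± 0.17). In GFP-negative cells Acadsb, the dehydrogenase of short branched chains, was higher by 0.88 ± 0.21 and Crat, carnitine acetyltransferase, by 1.08 ± 0.28. With equal array medians 1 was higher and 4 were lower in the GFP-positive fraction, and 1 was higher and 1 lower in the GFP-negative fraction. Of all genes, 4.93% were higher with that scaling, and 27.3% lower, in the GFP-positive fraction, and 4.10% higher and 11.2% lower in the GFP-negative one. Without array 2 of day 5 in the same fraction, which leaves a lone array in that group, the calls as higher were lost in both. Most calls over all genes were lost there too.

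Among the remaining lists, uptake and activation had 3 of 17 genes higher in GFP-positive cells and none lower, near the 19.4% of all genes called: Gpihbp1 (2.03 ± 0.39), Mgll (1.91 ± 0.43) and Pnpla2, the first lipase of stored triglyceride (1.07 ± 0.29). Gpihbp1 is a gene of endothelium, and 8 of 10 endothelial markers passed as higher in the same comparison, against 11.2% of all genes. Their part in its rise was not tested. In GFP-negative cells uptake and activation had 1 gene higher, the synthetase Acsl5 (1.43 ± 0.36), and 1 lower, the transporter and acyl-CoA synthetase Slc27a2 (-3.92 ± 0.67), which had 3.5 and 3.6 units on day 8, below the median of all values, against 83.5 and 266 units on day 5. Pluripotency markers moved with Slc27a2: 4 of 7 passed the threshold as lower between the same days, against 5.61% of all genes. Their sums were 813 and 547 units on day 8, against 1766 and 9702 units on day 5, and their part in it was not tested. Among regulators and targets Tfam, the transcription factor of mitochondrial DNA, was lower in both fractions (-0.86 ± 0.17 and -0.84 ± 0.17), Gabpa was lower in GFP-positive cells (-0.58 ± 0.17), and Lpin1, a phosphatidate phosphatase that also acts as a coactivator, was higher in both (1.08 ± 0.29 and 1.23 ± 0.29). The lipid droplet coats went opposite ways in GFP-negative cells, with Plin2 higher (1.77 ± 0.51; 9 of 18 fits without 1 array) and Plin5 lower (-2.08 ± 0.44; 17 of 18), but Plin5 had 2.3 and 3.5 units on day 8, below the median of all values, against 19.4 and 57.5 units on day 5, the last on the array of batch 2. The peroxisomal reductase Pecr was lower in both fractions (-0.67 ± 0.22 and -0.83 ± 0.22), in GFP-positive cells in 4 of 18 fits without 1 array, and no peroxisomal gene was higher. With equal array medians, against the shares of all genes given above for that scaling, uptake in GFP-positive cells had 2 genes higher and 4 lower (0 and 4 in GFP-negative cells), regulators 0 and 6 (1 and 5) and peroxisomal oxidation 0 and 3 (0 and 3). Without array 2 of day 5 in the same fraction the calls as higher of uptake and of the regulators were lost, as were most calls over all genes. Between the fractions over all days, where 2.68% of all genes passed (5.41% with batch), Acsl3 alone of the 5 lists did, higher in GFP-positive cells by 0.45 ± 0.10 (adjusted p = 0.0329; 8 of 8 pairs). With batch in the fit, uptake had 2 higher and 1 lower and the regulators 1 higher, and Etfa, a subunit of the flavoprotein that takes electrons from the dehydrogenases, was the 1 mitochondrial gene past the threshold (-0.32 ± 0.08; adjusted p = 0.0363). On day 8 alone, where 2.58% of all genes passed, Gpihbp1 and Acsl3 were higher in GFP-positive cells (1.83 ± 0.39 and 0.91 ± 0.20; adjusted p = 0.0323 and 0.0374) and Acad9 was lower (-0.74 ± 0.17; adjusted p = 0.0435). These day 8 calls were lost without day 8 GFP-positive array 2, as were those of all other genes. On day 8 all 10 endothelial markers had positive differences, 2 of them past the threshold, and their part in the Gpihbp1 call was not tested.

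In the lists with no gene past the threshold between the fractions over all days, the genes with the lowest p were Etfa and Acat1 (-0.32 ± 0.08 and -0.38 ± 0.12), the peroxisomal enzymes Ehhadh and Pecr (-0.47 ± 0.20 and -0.23 ± 0.11), the estrogen-related receptor Esrra and the lipase inhibitor Angptl4 (0.35 ± 0.11 and -0.33 ± 0.14), and the elongase Elovl5 and the citrate carrier Slc25a1 (0.20 ± 0.06 and -0.20 ± 0.10), with adjusted p of 0.0622 to 0.328. For the difference between the fractions in the change from day 5 to day 8 no list had a gene past it either. The lowest p belonged to Gpihbp1 and Slc27a2 in uptake (1.85 ± 0.56 and 3.12 ± 0.94; the call of Slc27a2 was made with batch in the fit, adjusted p = 0.0387), to Acad9 and the dienoyl-CoA reductase Decr1 (-0.84 ± 0.24 and 0.65 ± 0.29), to the peroxisomal Hsd17b4 and Acaa1a (0.39 ± 0.25 and 0.72 ± 0.71), and to Plin5 and the thioesterase Acot1 (2.08 ± 0.62 and 1.65 ± 0.50), with adjusted p of 0.160 to 0.720.

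Over the 16 sorted arrays, which share days, batches and sorts, Pearson's r of log2(signal + 6.8) was 0.94 between Lpl and Acadvl, 0.80 between Fabp3 and Acadvl, 0.76 between Fabp3 and Ppargc1a and 0.75 between Lpl and Fabp3. It was 0.68 between Cd36 and Fabp3 and 0.66 between Hadha and Ppargc1a. Cpt2 had r of -0.01 with Lpl and -0.38 with Acadm, and Acadm had 0.05 with Hadha. Ppargc1a had r of 0.89 with Myh6 and 0.81 with Nkx2-5. These values are descriptions of arrays that fall into separate groups.

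Over all 18 arrays the genes most like each member were named by the highest r. For Lpl they were Hacd4, Lgals9 and Sec62 (0.97 to 0.99), and for Acadvl they were Slc25a12, Kat2b and Dnajb4 (0.97 to 0.98). For Ppargc1a they were the muscle genes Sorbs2, Myl9 and Actn2 (0.96 to 0.97, and 0.91 to 0.96 over the sorted arrays). For Fabp3 they were Cdkn1a, Rrad and Ifi30 (0.94 to 0.95), and for Cd36 they were Tle6, Cdc42bpg and Uhrf1bp1l (0.86 each). For Cd36 and Ppargc1a these values too rest in large part on signals below 22.5 units. For Cpt2 they were Col8a1, Efemp1 and Serpina3n (0.95 to 0.96, and 0.59 to 0.74 over the sorted arrays), for Hadha they were Rdh14, Chst11 and Bscl2 (0.93 each, and 0.75 to 0.80), and for Acadm they were Coq10b, Zfp809 and Nfix (0.89 each, and 0.56 to 0.67). For these last 3 members r was lower without the 2 cardiomyocyte arrays.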

How the data were processed

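RNA of selected cardiomyocytes (2 arrays) and of cells sorted on days 5 to 8 (16 arrays) was amplified in 2 rounds with a T7 oligo-dT primer, per the labels' protocols, which favours the 3' ends of transcripts. The authors deposited MAS5 signal intensity, linear and not log-transformed, which came from GCOS 1.4 and MAS5 per the submitters' processing notes. The mean of each array, trimmed by 2% at each end, was 150.0008 to 150.0012, and array medians were 18.2 to 29.3 units. Without detection calls, background was judged by signal alone.

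Groups and batches came from the sample titles. Of 45101 probe sets, 34945 carried 1 gene symbol, 932 several, 9160 none and 64 were controls. An Entrez identifier was matched for 34741 probe sets, and 0 symbols changed. The brightest probe set of each gene by mean was used, with type x only where no other existed. Group means of log2(signal + 6.8) were fitted in R 4.3.3 (limma 3.58.1) with a variance trend, 9 residual degrees of freedom (8 with batch as a covariate, which gave the cardiomyocytes no batch) and Benjamini-Hochberg adjustment. The fit was tested on simulated data. The offset, 6.8, is the 25th percentile of all values. The labels call the number a batch, so it was taken to pair the sorted samples. Of 28 correlations of batch differences between groups, which ranged from -0.18 to 0.65, 13 were over 0.1.

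The members and lists were chosen with earlier results of these data known. Named were all members, Nkx2-5 and Myh6, up to 4 genes with the lowest p past the threshold of each other list and comparison, the best 2 where none passed, and the 3 genes most correlated with each member. Promoter sequences are from RefSeq (GRCm38.p6). Figures were drawn in Python 3.11.15 (matplotlib 3.10.9).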

Additional observations from a re-analysis of the deposited data

How the results depend on the processing

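The alternatives were other offsets (1 and the median), quantile normalization, equal array medians, other filters on dim genes, other probe sets, no variance trend, the sorted arrays alone, a linear trend or days 7 and 8 against days 5 and 6, other groups to set the cardiomyocytes against, and each array left out. The only call that reversed was that of Cpt2 in the cardiomyocytes, at -0.19 on its dim probe set 1447820_x_at; with the mean of all its probe sets the adjusted p of Cpt2 was 0.158. In GFP-positive cells, where 4 members passed between days 8 and 5 (Cd36 tested only through its day 8 arrays), 1 passed with equal array medians, and 2 without the variance trend or with the sorted arrays alone. With 1 array left out, 0 to 4 members passed there, 0 to 2 in GFP-negative cells and 2 to 5 in the cardiomyocytes, and 0 in every comparison between the fractions. A fit in which the lone array of a group remained assumed that it varied like the other groups. The cause of these changes was not tested.

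With batch as a replicate block, which pairs the arrays of a batch, 7 members passed in the cardiomyocytes and 5 between days in GFP-positive cells, and 0 between the fractions. The count of all genes with this block was 724 between the fractions over all days (358 without), 4 on day 5 (2), 1 on day 6 (0), 705 on day 8 (345) and 138 for the difference of the changes (1); with days 7 and 8 against days 5 and 6 that count was 19, and 142 with the block, a setting chosen after seeing the data. Apart from the calls named beside the results, the block changed no call of a member.

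Over all genes, equal array medians gave 4317 between days in GFP-positive cells (2594), 181 on day 8 between the fractions and 25 for the difference of the changes. On day 5 the count between the fractions was 0 with an offset of 1, the upper-quartile filter, the mean of probe sets or the sorted arrays alone, 1 without a filter or with quantile normalization, 5 without the trend and 12 with the median offset. On day 8 it was 199 with an offset of 1, 542 with the median offset and 188 with the sorted arrays alone. For the difference of the changes it was 0 with an offset of 1, the upper-quartile filter or the sorted arrays alone, 58 with the mean of probe sets, 63 with quantile normalization, 80 with the median offset and 120 with a linear trend. With 1 array left out the counts were 65 to 3058 between days in GFP-positive cells, 30 to 2057 in GFP-negative cells, 2886 to 4914 in the cardiomyocytes, 129 to 586 between the fractions over all days, 0 to 38, 0 to 1, 0 to 3 and 0 to 728 on days 5, 6, 7 and 8, and 0 to 157 for the difference of the changes.

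Equal array medians moved the median difference of all genes to 0.32 in the cardiomyocytes (-0.16 as reported), -0.36 between days in GFP-positive cells (0.14) and -0.22 in GFP-negative cells, and quantile normalization to 0.01 and -0.04 in the first 2. The share of calls that were higher was 75.3% and 15.3% and 26.8% with equal medians in these 3 comparisons, against 38.6%, 57.6% and 56.9% as reported; quantile normalization gave 46.5% between days in GFP-positive cells.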
